A study of Rattus norvegicus with 9 samples.

Results

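The genes described here are the ligands and receptors of the tumour necrosis factor (TNF) superfamily, the TRAF adaptors and the TNF-alpha-induced protein (TNFAIP) genes, measured in rat lung. They were chosen by gene symbol, with earlier results of these data known. The pattern of names takes in Tnfsf, Tnfrsf, Tnfaip and Traf genes with Tnf, Lta, Ltb, Ltbr, Fas, Faslg, Cd40, Cd40lg, Cd27, Cd70 and Eda2r. The array named 39 of these genes, each by 1 probe, among 14497 genes with a single symbol. The 39 comprised 14 ligands, 4 receptors with a death domain, 14 other receptors, 4 TRAF adaptors and 3 TNFAIP genes. Another 17 genes of the pattern in the RefSeq table, among them Tnfaip3, Tnfrsf13c, Traf1 and Eda2r, had no probe with a single symbol and were not analysed here.

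After weaning, Wistar rats were given a 30% sucrose solution as their only drink for 24 weeks to induce metabolic syndrome (MetS, 3 animals), or water (control, 4 animals), and both groups ate the same standard chow. Lungs were taken after 7 hours of fasting. MetS animal 1 and control animal 1 were each measured on a second array, so 9 arrays stood for 7 animals, and the 2 arrays of an animal were averaged. Male sex is given for the MetS rats, and the labels do not state the sex of the control rats, so sex and diet cannot be told apart from them. All values are log2 expression values of an Affymetrix array, on which 1 unit is a 2-fold difference, and the number of animals limits the precision of each of them.

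TNF superfamily ligands are trimeric proteins, made mostly at the surface of immune cells and in part released, that bind receptors with cysteine-rich repeats. Receptors with a death domain can start apoptosis through FADD and caspase 8. Many receptors of the family, with or without a death domain, act through TRAF adaptors and turn on NF-kB. In the lung, TNF is a product of macrophages that makes endothelium adhesive for leukocytes, and other members serve the survival and activation of T and B cells. In a whole lung sample, fewer cells of a type and less RNA per cell cannot be told apart.

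Lta, Tnf and Ltb lie next to each other on chromosome 20 of the RefSeq assembly GRCr8, and they are the founding ligands of the family. Their upstream sequences are shown because these neighbours spread very differently over the animals, as described below. Each is the 250 bases before the annotated transcript start, 5′ to 3′ on the strand of the gene, with matches to the NF-kB consensus in capitals. Lta lies at chr20:3623277-3623526 on the plus strand, Tnf at chr20:3626435-3626684 on the plus strand and Ltb at chr20:3634055-3634304 on the minus strand.
Lta: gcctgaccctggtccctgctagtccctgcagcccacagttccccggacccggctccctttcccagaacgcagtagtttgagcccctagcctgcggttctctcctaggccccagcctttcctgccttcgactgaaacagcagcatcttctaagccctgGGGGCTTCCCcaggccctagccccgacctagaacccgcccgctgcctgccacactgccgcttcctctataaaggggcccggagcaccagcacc
Tnf: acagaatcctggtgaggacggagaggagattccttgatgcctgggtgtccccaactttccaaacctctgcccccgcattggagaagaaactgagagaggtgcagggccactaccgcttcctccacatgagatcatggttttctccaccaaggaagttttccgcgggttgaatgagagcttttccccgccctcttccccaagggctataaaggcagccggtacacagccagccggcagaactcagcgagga
Ltb: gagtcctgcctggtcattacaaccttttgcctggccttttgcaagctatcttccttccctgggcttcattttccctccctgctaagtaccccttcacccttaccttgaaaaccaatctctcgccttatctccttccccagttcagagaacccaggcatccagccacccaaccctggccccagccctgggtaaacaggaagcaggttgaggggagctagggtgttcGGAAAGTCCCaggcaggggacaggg

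The NF-kB consensus was searched on both strands. Lta held a match 93 to 84 bases before the start on the plus strand of the gene, and Ltb one 25 to 16 bases before it on the other strand, and the letters are not in the Tnf window. Of the 29 members with a sequence that the RefSeq set includes, a match was held by 4 (13.8%), namely Lta, Ltb, Tnfrsf8 and Traf3, against 1185 of 33469 promoters of this length in the whole table (3.54%). A match is a run of letters and was not tested as a binding site.

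No member of the family differed between the groups past the threshold. With limma, 0 of the 39 members passed an adjusted p under 0.05, as did 0% of all 28826 probes, and the smallest adjusted p of a member was 0.324. At an unadjusted p under 0.05 there was 1 member lower in MetS, Tnfsf4, and 0 higher, where 9.91% of all probes were lower and 3.82% higher. MetS and control values were fully separated for 1 member higher in MetS, Traf3, and for 1 lower, Tnfsf4, against 4.88% and 6.84% of all probes. Together these were 2.56% of the members at the unadjusted threshold and 5.13% without overlap, shares below those of the array as a whole.

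The differences were small in size. They ran from -0.34 for Tnfsf4 to 0.16 for Faslg, with 21 members higher and 18 lower and a median of 0.021, beside a median of 0.012 over all probes and 0.038 over all genes with 1 symbol. The median size regardless of direction was 0.060 for the members and 0.106 for all probes. The 95% interval of the difference lay within 1 log2 unit of 0, a 2-fold change in either direction, for all 39 members and for 92.0% of all probes. It lay within 0.5 of 0, a 1.41-fold change, for 36 members (92.3%) and for 73.7% of all probes. The 3 whose intervals passed this bound were Tnfsf4, Ltb and the osteoprotegerin gene Tnfrsf11b. The Tnfsf4 interval, -0.59 to -0.092, passed it by lying off 0, and wider ones such as that of Tnfrsf21, -0.33 to 0.43, did not. A missed threshold does not show equal levels, but these bounds are the sizes of change that the 7 animals still allow under the model.

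**Figure D1:**
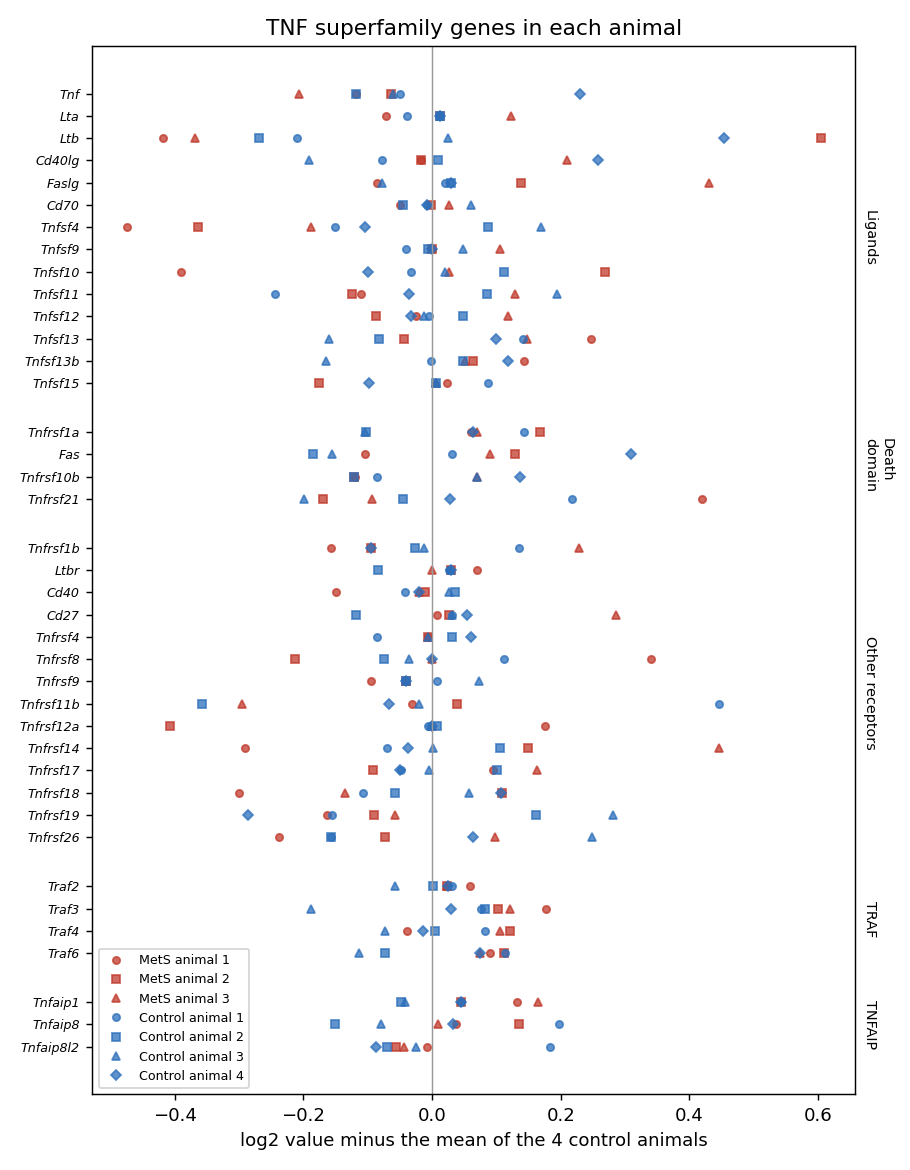
Each row is a gene and each point an animal, plotted as its log2 value minus the mean of the 4 controls (x axis); red points are MetS and blue points control animals, and the marker shape gives the animal's number. The colours are mixed in nearly every row, Tnfsf4 has its 3 MetS points on the left of its 4 control points, and Ltb has the widest row, with a range of 1.02.

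The ligand TNF itself did not pass the test. Tnf stood at 7.25, 7.31 and 7.16 in MetS animals 1 to 3 and 7.32, 7.25, 7.31 and 7.60 in controls 1 to 4. All values lay between 7.16 and 7.60, control 4 was the highest, and the groups overlapped. Tnf was above the dim-end percentile, explained below, in 4 of the 7 animals, and controls 1 to 3 were below it. The difference was -0.13 (95% interval -0.35 to 0.095) on the log2 scale, a fold interval of 0.782 to 1.07 (limma, adjusted p = 0.541). Adding the SD of each array profile, explained below, as a covariate gave -0.31 for Tnf with an unadjusted p under 0.05. Leaving out controls 2 and 3 gave -0.22, whereas leaving out control 4 gave -0.053 and another quantile normalization -0.071.

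Both TNF receptors overlapped between the groups. Tnfrsf1a, the death domain receptor present on most cells, stood at 9.33, 9.44 and 9.34 in MetS animals 1 to 3 and 9.41, 9.17, 9.17 and 9.34 in controls 1 to 4. Controls 2 and 3 were the lowest, and the other 5 animals lay within 0.11 of each other. Its difference was 0.099 (95% interval -0.093 to 0.29). Tnfrsf1b, the TNF receptor of leukocytes and endothelium that binds TRAF2, stood at 10.09, 10.15 and 10.47 in MetS animals 1 to 3 and 10.38, 10.22, 10.23 and 10.15 in controls 1 to 4. MetS animal 1 was the lowest and MetS animal 3 the highest of all 7, which left a difference of -0.0073 (95% interval -0.26 to 0.25).

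Among the neighbours on chromosome 20, Ltb varied most of all 39 members. Lymphotoxin beta, which Ltb encodes, anchors lymphotoxin alpha at the cell surface and is made by lymphocytes. Ltb stood at 7.68, 8.70 and 7.73 in MetS animals 1 to 3 and 7.89, 7.83, 8.12 and 8.55 in controls 1 to 4. MetS animal 2 and control 4 stood out as high, a MetS animal and a control. The range of 1.02 compares with 0.098 between the 2 arrays of MetS animal 1 and with identical values on both arrays of control 1. That identity is one of the repeated values described below, which were common over all probes. Group means were 8.04 ± 0.58 (SD, n = 3) against 8.10 ± 0.33 (SD, n = 4), a difference of -0.061 (95% interval -0.73 to 0.61), the widest interval of the family. Without MetS animal 2 the difference was -0.39 and the groups no longer overlapped, and without MetS animal 1 it was 0.12, on the other side of 0. It was 0.093 without MetS animal 3 and 0.091 without control 4, and -0.13 and -0.15 without controls 1 and 2.

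Lta, which encodes lymphotoxin alpha, ranged over 0.19 and Tnf over 0.44. Lta stood at 6.84, 6.92 and 7.03 in MetS animals 1 to 3 and 6.87, 6.92, 6.92 and 6.92 in controls 1 to 4, with a difference of 0.021 (95% interval -0.13 to 0.17). Ltbr, the receptor for the membrane-bound lymphotoxin and a signal for lymphoid tissue formation, stood at 9.13, 9.09 and 9.06 in MetS animals 1 to 3 and 9.09, 8.98, 9.09 and 9.09 in controls 1 to 4. Its groups overlapped within 0.15 log2 units, with a difference of 0.033 (95% interval -0.11 to 0.17).

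Lymphocyte markers were ordered over the animals partly as Ltb was. The mean of 11 T cell markers was 8.002, 8.65 and 8.50 in MetS animals 1 to 3 and 8.29, 8.11, 8.27 and 8.43 in controls 1 to 4. For 6 B cell markers it was 7.63, 8.04 and 7.87 in MetS and 7.97, 7.78, 8.01 and 8.18 in controls. MetS animal 1 was lowest for all 3 and control 4 was high for all 3, whereas MetS animal 3 was low for Ltb and high for T cell markers. All 11 T cell markers were higher in MetS, with a median of 0.090, but only 7 with the SD covariate and 5 if controls 2 and 3 were dropped. In limma 0 of them had an unadjusted p under 0.05. Of the 6 B cell markers 4 were lower. Cr2, 1 of the 6, was lower at an unadjusted p under 0.05 and without overlap, where 9.91% and 6.84% of all probes were. The part of lymphocyte number in Ltb was not tested.

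**Figure D2:**
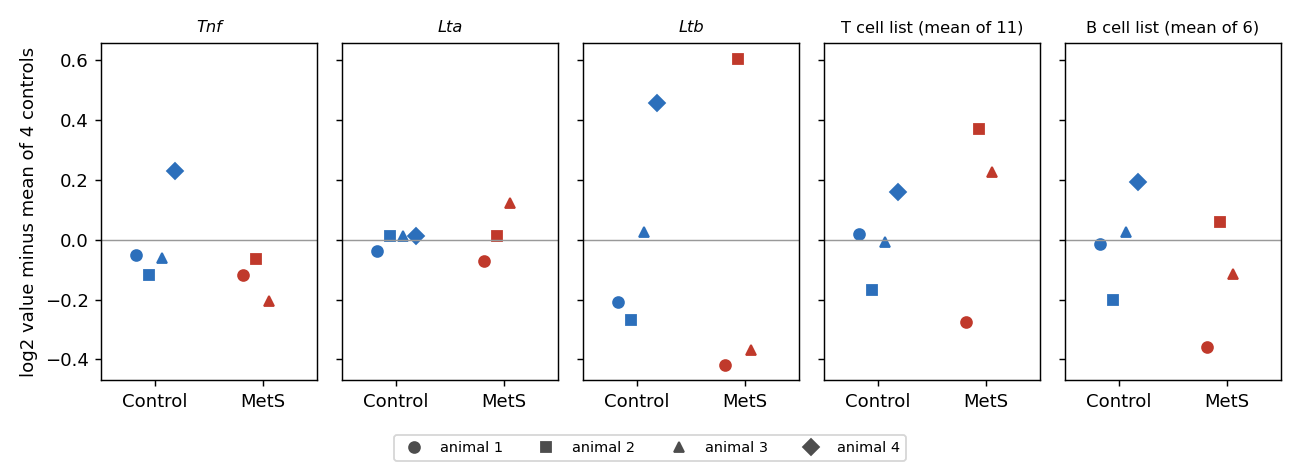
Log2 value minus the mean of the 4 controls (y axis) for Tnf, Lta, Ltb and the means of 11 T cell and 6 B cell markers, with 1 point per animal, controls in blue and MetS in red, and the marker shape as the animal's number. The Ltb points range over 1.02 and those of Lta over 0.19, and MetS animal 2 and control 4 are the 2 highest for Ltb.

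Tnfsf4 was the member with the lowest p. It encodes OX40 ligand, a costimulatory signal of antigen-presenting cells for activated T cells. Tnfsf4 stood at 5.99, 6.10 and 6.28 in MetS animals 1 to 3 and 6.31, 6.55, 6.63 and 6.36 in controls 1 to 4. Every MetS animal lay below every control, with MetS animal 3 and control 1 only 0.037 apart. Group means were 6.12 ± 0.14 (SD, n = 3) against 6.47 ± 0.15 (SD, n = 4), a difference of -0.34 (95% interval -0.59 to -0.092) or a fold of 0.789, above the threshold once all probes were counted (limma, adjusted p = 0.324). The 2 arrays of MetS animal 1 differed by 0.21 for this gene.

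The Tnfsf4 probe was dim. No detection call is given for these values, so the 1238 olfactory and vomeronasal receptor genes on the array, hardly transcribed outside the nose, served as a mark of its dim end. Tnfsf4 was below their 95th percentile in all 7 animals. Their median was 5.45, 5.56 and 5.81 in MetS animals 1 to 3 and 6.21, 6.75, 6.70 and 5.85 in controls 1 to 4, and Tnfsf4 too was lowest in MetS animal 1 and highest in controls 2 and 3. The SD of an animal's values over all probes was 1.93, 1.90 and 1.88 in MetS and 1.85, 1.77, 1.76 and 1.88 in controls. Every MetS animal had a higher SD than controls 1 to 3, so SD and diet were partly confounded. A fit with the SD as covariate therefore cannot fully separate them, here or elsewhere in the report. Adding that SD as a covariate gave -0.10 for Tnfsf4, and leaving out controls 2 and 3 gave -0.21. After another quantile normalization it was -0.16. Without MetS animal 1 it was -0.28, no longer at an unadjusted p under 0.05. The part of the dim end in the Tnfsf4 difference was not tested.

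OX40 itself, the receptor Tnfrsf4, read 7.02 in each MetS animal and 6.94, 7.06, 7.02 and 7.09 in controls. Its difference was -0.0070 (95% interval -0.15 to 0.13). The mean of 6 dendritic cell markers ranged from 7.81 to 7.91 in MetS and from 7.85 to 7.98 in controls, with 3 higher and 3 lower. Xcr1, 1 of the 6, was lower at an unadjusted p under 0.05 and without overlap, where 9.91% and 6.84% of all probes were. The part of dendritic cell number in Tnfsf4 was not tested.

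Identical values such as these were common. To 6 decimals, 20 of the 39 members (51.3%) had a value shared by 2 or more arrays, beside 40.9% of all probes, and 9 had 1 value on 4 or more of the 9 arrays. Lta and Tnfrsf9 each had the same value on 6 arrays, which came from both groups. The part of repeated values in the narrow intervals of the family was not tested.

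Death ligands and death receptors overlapped between the groups. Faslg, the Fas ligand of cytotoxic lymphocytes, stood at 7.03, 7.25 and 7.55 in MetS animals 1 to 3 and 7.14, 7.14, 7.04 and 7.14 in controls 1 to 4. Faslg was above the dim-end percentile in 4 of the 7 animals, and controls 1 to 3 were below it. MetS animal 3 was the highest of all and MetS animal 1 the lowest, with a difference of 0.16 (95% interval -0.12 to 0.44). Without MetS animal 1 it was 0.28, with an unadjusted p under 0.05, and without MetS animal 3 it was 0.026. The mean of 9 NK and cytotoxic cell markers ranged from 9.02 to 9.81 in MetS and from 9.13 to 9.84 in controls, and its part in Faslg was not tested.

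Fas, the receptor for this ligand, stood at 8.29, 8.52 and 8.48 in MetS animals 1 to 3 and 8.42, 8.21, 8.24 and 8.70 in controls 1 to 4. Control 4 was the highest and control 2 the lowest, so that the controls spanned all MetS animals, with a difference of 0.039 (95% interval -0.27 to 0.35). Tnfsf10, which encodes the death ligand TRAIL, stood at 10.72, 11.38 and 11.14 in MetS animals 1 to 3 and 11.08, 11.22, 11.13 and 11.01 in controls 1 to 4. The controls lay within 0.21 of each other while MetS animals 1 and 2 were the lowest and the highest of the 7, with group means of 11.08 ± 0.33 (SD, n = 3) against 11.11 ± 0.089 (SD, n = 4). The difference was -0.032 (95% interval -0.38 to 0.32).

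Of the receptors for TRAIL, Tnfrsf10b stood at 6.42, 6.42 and 6.61 in MetS and 6.46, 6.42, 6.61 and 6.68 in controls, below the dim-end percentile in all 7 animals. Tnfrsf11b encodes osteoprotegerin, a secreted decoy for the ligands RANKL and TRAIL, and stood at 9.31, 9.38 and 9.05 in MetS and 9.79, 8.99, 9.32 and 9.28 in controls. Control 1 was the highest and control 2 the lowest, a range of 0.80 within the controls alone, beside 0.036 between the 2 arrays of control 1. The difference was -0.096 (95% interval -0.53 to 0.34). Tnfsf11, the gene of RANKL, stood at 6.78, 6.77 and 7.02 in MetS and 6.65, 6.98, 7.09 and 6.86 in controls, but the 2 arrays of control 1 differed by 0.28 for it. Tnfsf11 too was below the dim-end percentile in all 7 animals. The death domain receptor Tnfrsf21 stood at 9.61, 9.02 and 9.10 in MetS and 9.41, 9.14, 8.99 and 9.22 in controls, with MetS animal 1 and control 1 the 2 highest.

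The genes of TWEAK and its receptor, a pair known in tissue repair, differed in the size of their spread. Tnfsf12, the TWEAK gene, stood at 8.72, 8.65 and 8.86 in MetS animals 1 to 3 and 8.74, 8.79, 8.73 and 8.71 in controls 1 to 4. The 7 animals lay within 0.21 of each other and the difference was 0.0019 (95% interval -0.16 to 0.16). Tnfrsf12a, the Fn14 receptor, stood at 8.54, 7.95 and 8.36 in MetS animals 1 to 3 and 8.35, 8.37, 8.36 and 8.36 in controls 1 to 4. The 4 controls lay within 0.014 of each other, while MetS animal 2 was low and MetS animal 1 high. One value of 8.36 was repeated on 3 arrays, among them those of control 4 and MetS animal 3. The part of repeated values in the narrow control spread was not tested. Means were 8.28 ± 0.30 (SD, n = 3) against 8.36 ± 0.0056 (SD, n = 4), with a difference of -0.077 (95% interval -0.38 to 0.23). Without MetS animal 2 it was 0.088, without MetS animal 1 it was -0.20 and without MetS animal 3 it was -0.12.

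B cell survival factors overlapped as well. Tnfsf13b, the gene of BAFF, stood at 8.94, 8.86 and 8.85 in MetS animals 1 to 3 and 8.79, 8.84, 8.63 and 8.91 in controls 1 to 4. Control 3 was the lowest and MetS animal 1 the highest, with a difference of 0.086 (95% interval -0.10 to 0.27). Tnfsf13, the gene of the related ligand APRIL, stood at 10.85, 10.56 and 10.75 in MetS and 10.75, 10.52, 10.44 and 10.70 in controls, with a difference of 0.12 (95% interval -0.13 to 0.36). Their shared receptor on plasma cells, Tnfrsf17, stood at 6.79, 6.61 and 6.86 in MetS and 6.65, 6.80, 6.69 and 6.65 in controls and was below the dim-end percentile in every animal. The mean of 5 plasma cell markers ranged from 9.96 to 9.98 in MetS and from 9.78 to 10.06 in controls.

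Cd40, the receptor through which T cells activate B cells and macrophages, stood at 7.66, 7.80 and 7.79 in MetS animals 1 to 3 and 7.77, 7.85, 7.84 and 7.79 in controls 1 to 4. MetS animal 1 was the lowest and the remaining 6 lay within 0.077 of each other, with a difference of -0.060 (95% interval -0.20 to 0.085). Cd40lg, its ligand on T cells, stood at 6.53, 6.53 and 6.75 in MetS and 6.47, 6.55, 6.35 and 6.80 in controls, with a difference of 0.059 (95% interval -0.22 to 0.34). Cd27, a costimulatory receptor of T and B cells, stood at 7.77, 7.79 and 8.05 in MetS and 7.79, 7.64, 7.79 and 7.82 in controls, where MetS animal 3 was the highest, and its ligand gene Cd70 at 5.60, 5.65 and 5.68 in MetS and 5.64, 5.61, 5.71 and 5.64 in controls. The Cd70 difference was -0.0082 (95% interval -0.14 to 0.12), and it was 0.23 at an unadjusted p under 0.05 after another quantile normalization, where its animals no longer overlapped. Both Cd70 and Cd40lg were below the dim-end percentile in all 7 animals.

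The other costimulatory members showed no separation of the groups. Tnfrsf14, the HVEM receptor of lymphocytes and mucosal cells, stood at 8.37, 8.81 and 9.10 in MetS and 8.59, 8.76, 8.66 and 8.62 in controls. The lowest and the highest were both MetS animals, 0.74 apart, and without MetS animal 1 the difference went from 0.10 to 0.30 with an unadjusted p under 0.05, and without MetS animal 3 to -0.070. Tnfrsf18, the GITR gene of regulatory T cells, stood at 7.49, 7.90 and 7.65 in MetS and 7.68, 7.73, 7.84 and 7.89 in controls. Tnfrsf9, the receptor 4-1BB, had a difference of -0.059 (95% interval -0.19 to 0.077) and its ligand gene Tnfsf9 one of 0.035 (95% interval -0.10 to 0.17), both below the dim-end percentile in all 7 animals. Tnfrsf8, the CD30 gene, stood at 7.51, 6.96 and 7.17 in MetS and 7.28, 7.09, 7.13 and 7.17 in controls, and the 2 arrays of control 1 differed by 0.24 for it.

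Of the remaining members, Tnfsf15, the endothelial ligand TL1A, had a difference of -0.049 (95% interval -0.23 to 0.13). Tnfrsf19, an orphan receptor also known as TROY, stood at 7.37, 7.44 and 7.47 in MetS and 7.38, 7.69, 7.81 and 7.25 in controls, with controls 2 and 3 the 2 highest. Its difference of -0.10 became 0.26, at an unadjusted p under 0.05, once the SD was a covariate, and 0.12 if controls 2 and 3 were dropped. Tnfrsf26 had a difference of -0.071 (95% interval -0.37 to 0.23).

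The ligands and receptors were also set side by side. Of 15 ligand and receptor pairs 9 had differences of the same sign and 6 of opposite sign, and in 0 pairs did both partners have an unadjusted p under 0.05 in limma. The Tnfsf4 difference of -0.34 stood beside -0.0070 for Tnfrsf4, and the Faslg difference of 0.16 beside 0.039 for Fas. Several pairs share a ligand or a receptor.

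All 4 TRAF adaptors, which carry the signal from the receptors to NF-kB and kinases, were higher in MetS by small amounts, although the SD covariate turned Traf2 to -0.014 and Traf6 to -0.043 and the loss of controls 2 and 3 turned Traf6 to -0.0014. There were 0 at an unadjusted p under 0.05 in limma. Traf2, the adaptor of both TNF receptor complexes, stood at 8.31, 8.27 and 8.27 in MetS animals 1 to 3 and 8.28, 8.25, 8.19 and 8.28 in controls 1 to 4. The 7 animals lay within 0.12 of each other, with a difference of 0.036 (95% interval -0.092 to 0.16). Traf6, which also serves interleukin-1 and Toll-like receptors, stood at 8.69, 8.71 and 8.68 in MetS animals 1 to 3 and 8.71, 8.53, 8.49 and 8.68 in controls 1 to 4. Controls 2 and 3 were the lowest and the other 5 lay within 0.038 of each other, with a difference of 0.093 (95% interval -0.082 to 0.27).

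Traf3, a brake on the alternative NF-kB pathway, did not overlap between the groups. It stood at 7.41, 7.34 and 7.36 in MetS animals 1 to 3 and 7.31, 7.32, 7.05 and 7.27 in controls 1 to 4. MetS animal 2 and control 2, the nearest of the 2 groups, were 0.022 apart, and control 3 was far below the rest. The difference was 0.13 (95% interval -0.057 to 0.33), a fold of 1.10 (limma, adjusted p = 0.474), smaller than the 0.14 between the 2 arrays of control 1. With the SD as covariate it was 0.040, without control 3 it was 0.071 and without controls 2 and 3 it was 0.081. Traf4 had a difference of 0.063 (95% interval -0.099 to 0.22). 

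Of the TNFAIP genes, Tnfaip1 stood at 9.86, 9.77 and 9.89 in MetS and 9.77, 9.68, 9.68 and 9.77 in controls, with a difference of 0.11 (95% interval -0.030 to 0.26). Tnfaip8, a regulator of cell death, stood at 9.45, 9.55 and 9.42 in MetS and 9.61, 9.26, 9.33 and 9.44 in controls, and the 2 arrays of control 1 differed by 0.22 for it. Tnfaip8l2, a gene of immune cells also called TIPE2, had a difference of -0.036 (95% interval -0.22 to 0.15). The groups overlapped for all 3, but for Tnfaip1 only by a tie. MetS animal 2 and controls 1 and 4 shared one value of 9.77, found on 4 arrays, and no MetS animal was below a control.

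**Figure D3:**
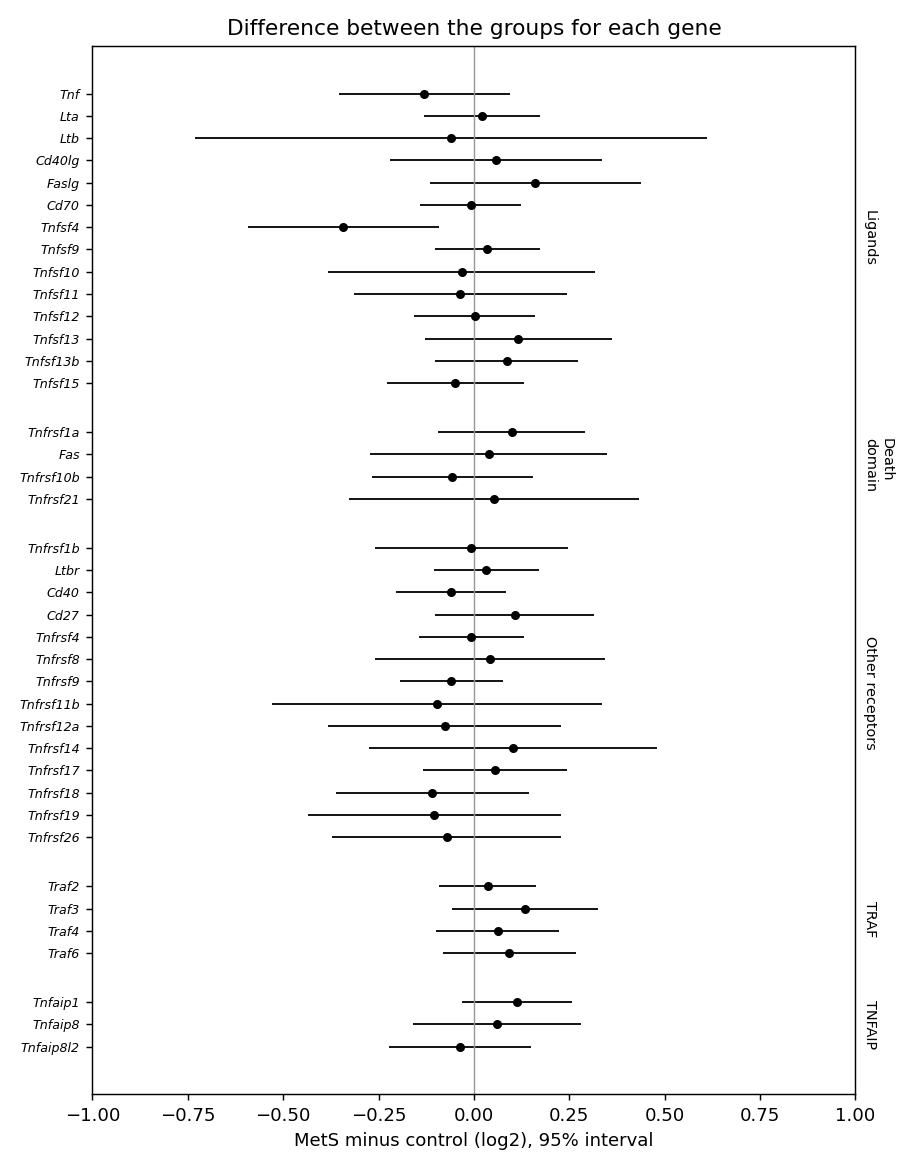
MetS minus control for each gene on the log2 scale (x axis), with the moderated 95% interval as a bar, in the order and groups of roles used in the text. The interval of Tnfsf4 alone lies to 1 side of 0, and all 39 intervals stay within 1 log2 unit of 0.

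The spread between animals was compared with that between arrays. The median difference between the 2 arrays of an animal was 0.056 for MetS animal 1 and 0.042 for control 1 over the members, and the median SD within groups was 0.12, beside 0.13 over all probes. Ltb, Tnfrsf11b, Tnfrsf14, Tnfsf10, Tnfsf4 and Tnfrsf21 had the widest ranges over the animals, between 1.02 and 0.62. Cd70 had the narrowest, at 0.11. For Tnfrsf4 the 2 arrays of control 1 were 0.150 apart, more than the range of 0.147 over the 7 animals. The 14 ligands had a median difference of -0.0032, the 4 death domain receptors 0.045, the 14 other receptors -0.033, the 4 TRAF adaptors 0.078 and the 3 TNFAIP genes 0.061.

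**Figure D4:**
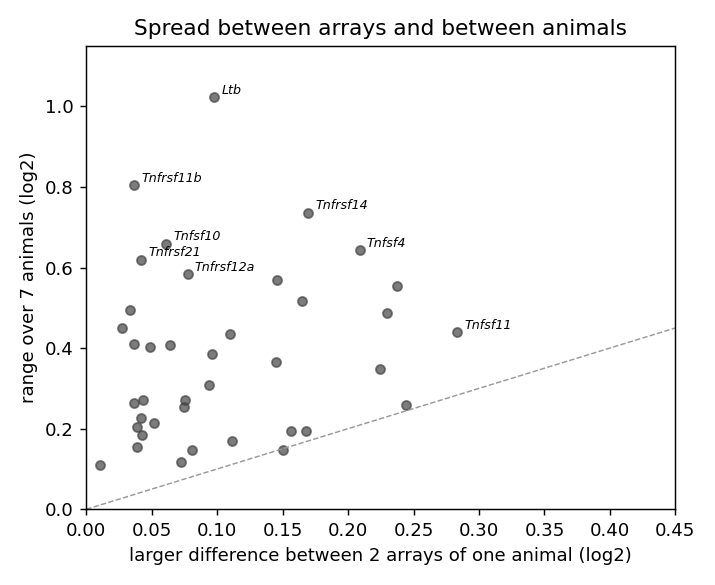
Each point is 1 of the 39 genes, with the larger of the 2 differences between arrays of the same animal on the x axis and the range over 7 animals on the y axis, both in log2 units; the dashed line marks equal values. Ltb lies highest, at a range of 1.02, with at most 0.098 between arrays of an animal.

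Brightness bears on how far these values can be read. Of the 39 members 18 were above the dim-end percentile in all 7 animals, 13 in some and 8 in none. The 8 were Cd40lg, Cd70, Tnfsf4, Tnfsf9, Tnfsf11, Tnfrsf10b, Tnfrsf9 and Tnfrsf17. The 13 were Tnf, Lta, Ltb, Faslg, Cd40, Cd27, Tnfrsf4, Tnfrsf8, Tnfrsf18, Tnfrsf19, Tnfrsf26, Traf3 and Tnfaip8l2. The 18 had a median difference of 0.045, with 13 higher and 5 lower, and the other 21 one of -0.035, with 8 higher and 13 lower. Both members without overlap were among the 21. As a check of the tissue, the means of 8 alveolar type 2 and 7 alveolar type 1 cell markers lay between 12.53 and 12.78 in all animals. Macrophage markers, 8 genes, averaged from 8.64 to 9.15 in MetS and from 8.79 to 9.03 in controls, and 9 endothelial markers from 10.50 to 10.87 and from 10.60 to 10.85.

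Each cell type list had a median farther from 0 than the members' 0.021, and further lists are given here. Of 7 fibroblast markers 4 were higher and 3 lower, with a median of 0.12. That median stayed at 0.12 under the SD covariate and was 0.065 without controls 2 and 3. Tcf21, 1 of the 7, was higher at an unadjusted p under 0.05 and without overlap, where 3.82% and 4.88% of all probes were. All 6 smooth muscle markers were higher in MetS with a median of 0.31, but 5 with a median of 0.088 under the SD covariate. All 4 red cell markers were higher with a median of 0.39, but 3 with a median of 0.11 under the SD covariate. Of the 4, Hbb and Alas2 had an unadjusted p under 0.05, both higher, where 3.82% of all probes did. Of 8 neutrophil markers 6 were higher with a median of 0.20, which was -0.0044 without controls 2 and 3. Of 6 cartilage markers 5 were lower with a median of -0.091, which turned to 0.049 under the SD covariate and to 0.014 without controls 2 and 3. The list means ranged from 8.91 to 9.44 in MetS and from 8.58 to 9.01 in controls for smooth muscle, and from 11.04 to 11.47 and from 10.58 to 11.23 for red cells. For neutrophils they ranged from 8.60 to 9.27 and from 8.58 to 9.11, and for cartilage from 7.04 to 7.10 and from 7.06 to 7.30. Their part in the values of the members and of the lists that follow was not tested.

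Genes that act below the receptors were taken from lists fixed with earlier results of these data known. Of all 14497 genes with 1 symbol 8995 were higher in MetS and 5502 lower, with a median of 0.038, and the lists are read beside these counts. Of 15 NF-kB core genes 13 were higher in MetS with a median of 0.082, but 9 with a median of 0.028 under the SD covariate. In limma 2 of the 15 had an unadjusted p under 0.05, both higher, where 3.82% of all probes did, and the same 2 did not overlap, where 4.88% of all probes did not. These were the IKK-alpha gene Chuk, at 9.70 ± 0.043 (SD, n = 3) against 9.46 ± 0.13 (SD, n = 4), and the TAK1 gene Map3k7, at 9.90 ± 0.059 (SD, n = 3) against 9.67 ± 0.16 (SD, n = 4). Nfkbia, the NF-kB inhibitor and target, stood at 10.90 ± 0.19 (SD, n = 3) against 10.54 ± 0.28 (SD, n = 4), with overlap. Of 21 genes of the receptor complex and death signalling 19 were higher with a median of 0.074. Under the SD covariate, which was partly confounded with diet, 7 were higher with a median of -0.044. Cflar, the inhibitor of caspase 8 activation, and the kinase gene Tbk1 were the 2 of the 21 at an unadjusted p under 0.05, both higher, and 0 of the 21 were without overlap. Cflar stood at 10.36 ± 0.078 (SD, n = 3) against 10.16 ± 0.11 (SD, n = 4) and Tbk1 at 9.60 ± 0.13 (SD, n = 3) against 9.35 ± 0.14 (SD, n = 4). None of them passed over all probes (limma, adjusted p between 0.329 and 0.374 for Chuk, Map3k7, Nfkbia, Cflar and Tbk1). After another quantile normalization the medians were 0.022 and 0.020.

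The list for the release of TNF from the cell surface held 4 genes, Adam17, Rhbdf1, Rhbdf2 and Timp3, which do not all favour release. All were higher with a median of 0.14, but 2 with a median of -0.021 under the SD covariate, and 0 had an unadjusted p under 0.05 in limma. Adam17, the protease that sheds TNF, stood at 10.69 ± 0.21 (SD, n = 3) against 10.55 ± 0.18 (SD, n = 4). Timp3, which encodes an inhibitor of that protease, had the largest difference of the list. It stood at 12.84 ± 0.11 (SD, n = 3) against 12.66 ± 0.22 (SD, n = 4).

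Of 19 genes that TNF is known to induce, 14 were lower in MetS and 5 higher, with a median of -0.094, and 0 passed over all probes. The 3 of 19 at an unadjusted p under 0.05 were all lower, as were 9.91% of all probes: the cytokine gene Il6 at 5.12 ± 0.025 (SD, n = 3) against 5.45 ± 0.21 (SD, n = 4), the chemokine gene Ccl20 at 7.02 ± 0.023 (SD, n = 3) against 7.27 ± 0.16 (SD, n = 4) and the urokinase gene Plau at 8.39 ± 0.11 (SD, n = 3) against 8.59 ± 0.090 (SD, n = 4) (limma, adjusted p = 0.324 for Il6, 0.344 for Ccl20 and 0.362 for Plau). Il6 and Ccl20, 2 of 19, did not overlap and were lower, as were 6.84% of all probes, and Il6 was dim, from 5.19 to 5.68 in controls, with controls 2 and 3 the highest as for the receptor genes. The part of the dim end in the Il6 difference was not tested. The monocyte chemokine gene Ccl2, named after its value was seen, stood at 9.19 ± 0.32 (SD, n = 3) against 9.82 ± 0.48 (SD, n = 4), with overlap, and control 4 was the highest at 10.52. The adhesion gene Icam1 stood at 11.14 ± 0.11 (SD, n = 3) against 11.28 ± 0.071 (SD, n = 4), with overlap. Of the 5 higher genes Cxcl10 differed most, at 8.04 ± 0.44 (SD, n = 3) against 7.78 ± 0.13 (SD, n = 4), with overlap. The median of the list stayed below 0 in each alternative, at -0.18 with the SD covariate, -0.17 without controls 2 and 3, -0.023 without MetS animal 1 and -0.013 without control 4.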

How the data were processed

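Lung total RNA with an RNA integrity number of at least 6 was labelled with biotin from 50 ng and hybridised, as the labels' protocols say. Values for 28826 probes on 9 arrays are on the log2 scale as deposited. The submitters' processing notes list RMA, limma and R 2.11.0 with no role or order. The build was, for these values, not given in the sources used here. Array medians lay between 7.64 and 7.69 and SDs between 1.76 and 1.94.

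Probes were named through the platform annotation, updated by gene identifier through RefSeq (GRCr8), and 15209 had 1 symbol, 306 several and 13311 none. Traf7 shares a probe with another gene and was left out. The highest-mean probe stood for a gene. The 2 arrays of an animal were averaged, so n counts animals. MetS minus control was fitted with lmFit and eBayes of limma 3.58.1 (R 4.3.3), two-sided, without covariate, with Benjamini-Hochberg adjustment over all probes at 0.05 and 7.28 total degrees of freedom, of which 5 were residual. Tables and figures used pandas 2.3.3 and matplotlib 3.10.9 in Python 3.11.15.

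The members and gene lists were chosen with earlier results of these data known. The genes given with every animal were those with an unadjusted p under 0.05 and no overlap, and Tnf, Tnfrsf1a, Tnfrsf1b, Tnfsf10, Tnfsf12, Tnfrsf12a, Tnfsf13b, Fas, Faslg, Ltb, Ltbr, Cd40, Traf2 and Traf6 whatever their value; Tnfaip3 and Tnfrsf13c were on that list but had no probe with a single symbol. Those with only one of the 2, and partners of these genes, were given more briefly, as were up to 3 genes of a list by smallest p. Icam1, Cxcl10, Adam17, Timp3 and the remaining members were added after their values were seen. The fit was tested on simulated data before use.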

Additional observations from a re-analysis of the deposited data

Results flagged for a closer look

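Among the 4 controls, 1 animal stood far from the other 3, relative to the range of the 4, for 4 of the 39 genes. Chance alone gives about 1 in 20, or 1.95 of 39, a rate that does not allow for tied values. Groups of 3, such as MetS, were not examined in this way. Control 1 was at 6.87 for Lta, with the other 3 controls at one identical value of 6.92. The 2 arrays of control 1 differed by 0.10 for Lta, more than its distance from the others. Control 3 was at 7.04 for Faslg, with the others between 7.14 and 7.14. Control 2 was at 8.98 for Ltbr, with the others at 9.09, and at 7.64 for Cd27, with the others between 7.79 and 7.82. For Lta, Faslg, Ltbr and Cd27 at least 3 of the 9 arrays shared one value to 6 decimals. The part of such repeated values was not tested.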

How the results depend on the processing

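At an adjusted p under 0.05, 0 members were called in each of 18 alternative fits. At an adjusted p under 0.1 the fit of the report called 0, and that threshold was not applied as a setting to the other fits, where Tnfsf4 with a replicate block had 0.0531. The count of 1 lower and 0 higher at an unadjusted p under 0.05 became 1 and 1 after another quantile normalization (Tnfsf4 and Cd70) and with the SD of each animal as a covariate (Tnf lower, Tnfrsf19 higher). It became 0 lower without dim probes, without controls 2 and 3, and at an unadjusted p under 0.01. Leaving out 1 animal gave 0 to 2 higher and 0 to 1 lower, with Faslg and Tnfrsf14 higher and 0 lower without MetS animal 1, and 3 to 8 members changed sign. The 1 higher and 1 lower without overlap became 3 and 0 after quantile normalization (Cd70, Tnfsf9 and Traf3), and 1 and 0 without dim probes. Without controls 2 and 3 they became 1 and 2 (Tnf and Tnfsf4 lower). Leaving out 1 animal gave 1 to 4 higher and 1 to 4 lower without overlap, with 4 higher without MetS animal 1, 3 higher and 4 lower (Tnf, Ltb, Tnfsf4 and Tnfrsf18) without MetS animal 2, 2 lower without control 2 and 2 higher without control 4. The median difference of 0.021 turned to -0.014 with the SD as a covariate and to -0.0041 without controls 2 and 3, and ranged from -0.0070 to 0.035 when 1 animal was left out. Single differences changed sign for 18 members with the SD in the fit, 12 without controls 2 and 3 and 10 after quantile normalization. The SD was partly confounded with diet, so that fit cannot fully separate them. No member had a further probe, so the mean of a gene's probes could change nothing.

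The labels number the animals of both groups, but deviations from the group means correlated at 0.27, -0.12 and 0.34 for numbers 1, 2 and 3, so the numbers were not taken as pairs, and of the 3 MetS animals only number 1 correlated best with its own number. With a replicate block the lowest adjusted p of a member was 0.0531, for Tnfsf4 at -0.38 (0.0531 to 0.999 over the 18 fits), with 1 member lower at an unadjusted p under 0.05, while 2017 of 28826 probes were called. Control 4 has no partner there and drops out of the comparison.

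Changes smaller than the intervals could not be told from none with 3 and 4 animals. For dim genes, among them Tnfsf4 and Il6, no detection call bounds how far a value reflects the transcript.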
